A study of Mus musculus with 4 samples.

Results

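The 9 genes Snhg1, Snhg3, Snhg5, Snhg6, Snhg8, Snhg12, Snhg16, Snhg17 and Gas5 are long noncoding RNA genes that carry small nucleolar RNAs (snoRNAs) in their introns. Every probe set listed with 1 of these symbols alone was taken, which gave 19 of the 45037 probe sets and 9 of the 18193 named genes. Another 2 probe sets list a host gene together with a snoRNA gene and were not used. The genes were picked with their values in these same arrays in view, so the differences between genotypes below are a description and carry no test. The arrays hold whole mouse embryos of embryonic day 9.5. The Cop1KO group is the RNA of 6 embryos that lack Cop1, mixed into 1 pool, and is called the null pool here. The control group is RNA of 6 embryos, likewise mixed into 1 pool, and is titled wild-type although the labels state that its embryos were +/+ or +/-. Each pool was divided into 2 portions, with 1 array per portion, so every spread below is technical and 1 pool stands for each genotype. The sources used here do not name the strain, the sex or the form of the Cop1 allele. Cop1 itself, the ubiquitin ligase gene named in the Cop1KO label, gave 11.35 and 11.26 in the control portions and 9.67 and 9.77 in the null portions. The difference was -1.58 (SE 0.08; limma, adjusted p = 0.000728), in the direction the labels give. The null values still lay above the median of all probe sets on those arrays, 6.09 on each. Which part of the Cop1 transcript this probe set reads was not analysed here.

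When a host transcript is spliced, its introns are trimmed to mature snoRNAs, which guide ribose methylation (the box C/D class) or pseudouridylation (the H/ACA class) of ribosomal RNA in the nucleolus. The exons that remain form a noncoding RNA. Many such exonic RNAs begin with a 5′ terminal oligopyrimidine (TOP) tract, as mRNAs of ribosomal proteins do, and several are short-lived because ribosomes engage them and nonsense-mediated decay removes them. The probe sets measure transcripts of the host genes, and the snoRNAs themselves were not analysed here. In RefSeq (assembly GRCm38.p6) all 9 genes are annotated as lncRNA and contain snoRNA genes. Gas5 and Snhg1 hold 8 each, Snhg12 holds 4, Snhg16 holds 3, Snhg3, Snhg5 and Snhg17 hold 2 each, and Snhg6 and Snhg8 hold 1 each.

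The starts of the host genes are shown because the pyrimidine tract at the first base is what these noncoding RNAs are known to share with ribosomal protein mRNAs. RefSeq's table of promoters holds 10 entries for 8 of the 9 genes, Snhg6 being the one without an entry. For each gene the entry with the longest pyrimidine run is printed, 71 bases from 40 before the annotated first base to 30 after it. Capitals mark the longest run of C and T within 15 bases of the annotated start and, where found, the letters TATA starting 40 to 23 bases before it. The stretches lie on GRCm38.p6 at chr19:8723447-8723517 (plus strand) for Snhg1, chr4:132353656-132353726 (minus) for Snhg3 and chr9:88522867-88522937 (minus) for Snhg5. Those of Snhg8, Snhg12 and Snhg16 lie at chr3:123508306-123508376 (minus), chr4:132308638-132308708 (plus) and chr11:116671620-116671690 (plus). Those of Snhg17 and Gas5 lie at chr2:158361479-158361549 (minus) and chr1:161035126-161035196 (plus).
Snhg1: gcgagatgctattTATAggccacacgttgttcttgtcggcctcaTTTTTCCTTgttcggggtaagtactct
Snhg3: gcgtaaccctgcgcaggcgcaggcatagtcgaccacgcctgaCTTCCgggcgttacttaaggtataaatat
Snhg5: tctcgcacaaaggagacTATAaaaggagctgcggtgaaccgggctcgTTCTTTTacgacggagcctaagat
Snhg8: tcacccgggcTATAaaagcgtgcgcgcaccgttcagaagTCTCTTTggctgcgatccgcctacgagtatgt
Snhg12: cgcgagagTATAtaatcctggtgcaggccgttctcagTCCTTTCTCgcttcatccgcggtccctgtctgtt
Snhg16: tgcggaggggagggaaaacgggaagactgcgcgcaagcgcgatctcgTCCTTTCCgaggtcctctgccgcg
Snhg17: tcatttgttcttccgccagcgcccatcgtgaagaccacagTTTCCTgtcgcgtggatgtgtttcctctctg
Gas5: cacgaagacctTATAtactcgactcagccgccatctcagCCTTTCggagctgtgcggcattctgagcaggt

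Among all 10 entries of the host genes, 7 have a run of 6 or more pyrimidines in that window, as do 30.0% of the 32851 promoters in the table. Snhg3 had the shortest printed run, 5 bases, which 48.4% of promoters reach. The printed runs of Snhg1, Snhg3, Snhg5 and Snhg16 begin 4, 2, 7 and 7 bases after the annotated first base and so do not cover it. The letters TATA, which read the same on both strands, stood in the upstream window of 5 of the 10 entries, namely those printed for Snhg1, Snhg5, Snhg8, Snhg12 and Gas5, and in 5.49% of all promoters. The TATA search was added after the sequences were seen. Both matches depend on where RefSeq places the first base: the other entries of Gas5 and Snhg17, whose starts lie 565 and 13 bases away, have a longest run of 3. A match describes letters in a window and shows no bound factor and no tract on the RNA.

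Most host genes read higher in the embryos without Cop1. Of the 19 probe sets, 10 passed both limits upwards and 0 downwards (limma, adjusted p under 0.05 over all probe sets and at least 1.5-fold). Among all 45037 probe sets 6.76% passed them upwards and 6.96% downwards. By the adjusted p alone 14 of the 19 were higher and 1, that of Snhg3, lower, where all probe sets gave 15.1% and 17.6%. At an unadjusted p under 0.05 in limma, 15 of the 19 were higher and 2 lower, and all probe sets gave 20.4% and 22.6%. As the genes were picked on this contrast, nothing is read from these shares. The median difference, null minus control, was 0.64 log2 units over the 19 probe sets and 0.01 over all probe sets. With 1 probe set per gene, the one with the highest mean, 6 of 9 genes passed upwards, beside 3.58% of all named genes, and the median was 0.82 against -0.02 for all genes. Both null arrays read above both control arrays in 15 probe sets and below them in 2, and the remaining 2 overlapped. Over all probe sets 32.6% lay fully above and 32.7% fully below, so full separation of 2 portions from 2 is common in these arrays. With poly-A spike centring (a shift of each array so that the added control RNAs match), 5 host probe sets passed the limits upwards and 1, that of Snhg3, passed them downwards, and the median of all genes moved to -0.26. The share of all probe sets past the limits with that centring is not given here.

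**Figure D1:**
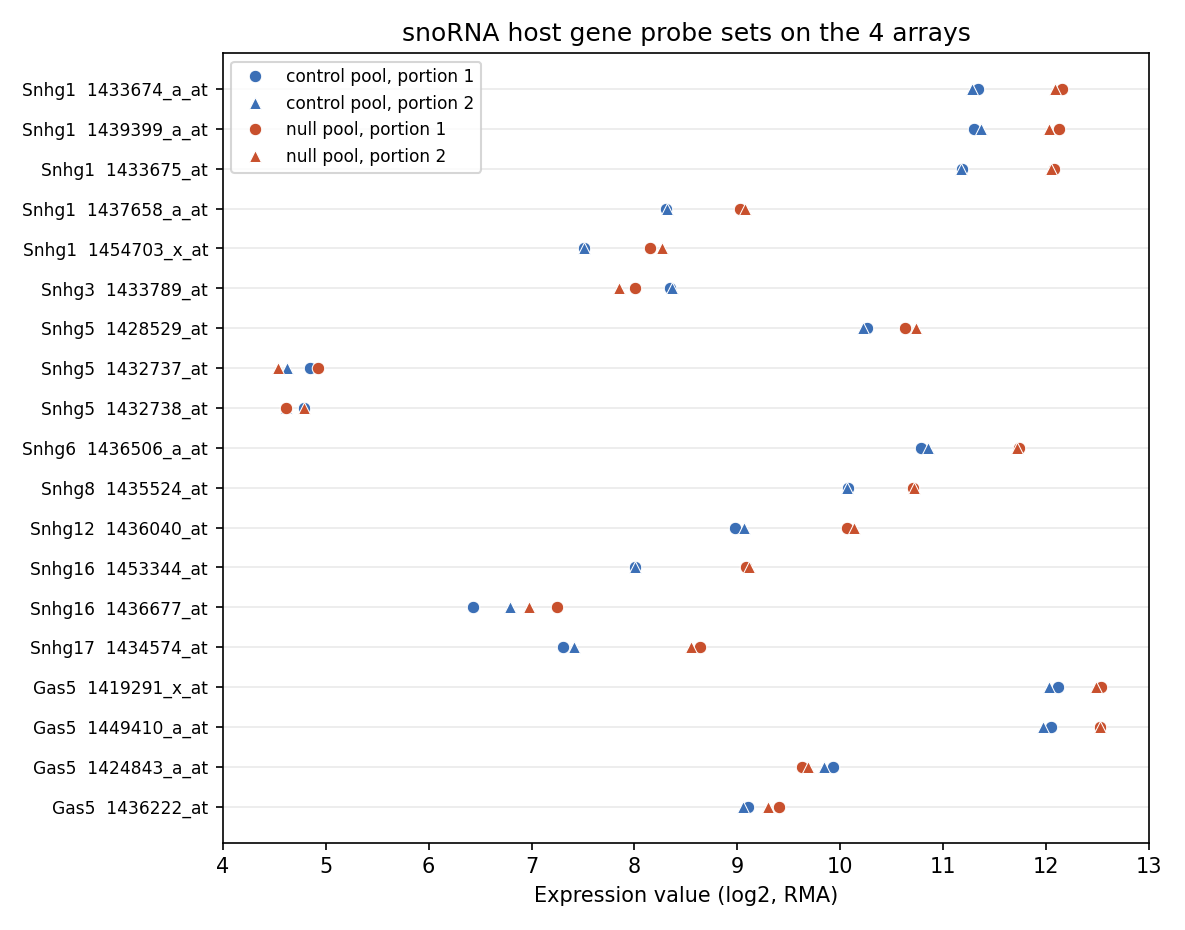
Log2 expression value (x axis) of each of the 19 host gene probe sets (y axis, symbol and probe set) on the 4 arrays. Blue marks are control portions and red marks null portions, circles portion 1 and triangles portion 2. Red lies right of blue in 15 rows, left of blue in the rows of Snhg3 and of 1 Gas5 probe set, and overlaps blue in the 2 dim rows of Snhg5.

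The portions of a pool lay close together for most of these probe sets. The 2 control portions differed by a median of 0.06 log2 units over the 19 probe sets and by at most 0.36. The null portions differed by a median of 0.07 and by at most 0.39. The largest of these differences came from the dimmer Snhg16 probe set in the control pool and from a dim Snhg5 probe set in the null pool. The corresponding medians over all probe sets, which were not matched for expression level, were 0.09 and 0.09. The 10 probe sets past the limits had gaps between the nearest arrays of the 2 pools of 0.63 to 1.14.

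The markers of a midgestation embryo were present, with means over 3 red cell globin genes of 14.4 and 14.4 in the control pool and 14.4 and 14.3 in the null pool. The trophoblast marker Tpbpa (3.39 and 3.53) and the decidual marker Prl8a2 (3.60 and 3.62) read low in both pools. Of 3 heart markers and of 3 neural tube markers 0 passed both limits (limma). At an unadjusted p under 0.05, 1 heart marker was higher and 1 neural tube marker lower, beside 16.8% and 27.5% of all genes. The heart means were 11.1 on each of the 4 arrays, and the neural tube means were 9.09 and 9.16 in the control pool and 8.95 and 8.88 in the null pool. Some markers of 3 other tissues passed both limits (limma), where 3.58% of all genes rose and 8.06% fell. Cdh5 (endothelium, 0.16), Apoa1 (yolk sac endoderm, -0.01), Tbx6 (0.04) and Meox1 (-0.52, both somite and tail) did not pass them. Of 3 endothelial markers 2 rose, Kdr (8.37 and 8.28 against 9.04 and 9.10) and Pecam1 (8.19 and 8.29 against 8.99 and 8.92), and the mean over the 3 went from 8.10 and 8.00 to 8.61 and 8.57. Of 3 yolk sac endoderm markers 2 fell, Ttr (8.90 and 9.04 against 7.46 and 7.41) and Afp (11.82 and 11.86 against 10.84 and 10.81), and the mean over the 3 went from 9.28 and 9.35 to 8.45 and 8.48. Of 3 somite and tail markers 1 fell, Tcf15 (9.08 and 9.14 against 8.46 and 8.48), and the mean over the 3 went from 7.72 and 7.65 to 7.30 and 7.32. Their part in the host gene differences was not tested, and in bulk RNA a change in the number of cells of a type cannot be told apart from a change of RNA per cell.

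Among hosts of box C/D snoRNAs, Snhg1 carries a cluster that includes Snord22. Its brightest probe set read 11.33 and 11.28 in the control portions against 12.16 and 12.09 in the null portions, so the pools did not overlap. The means were 11.30 ± 0.04 and 12.12 ± 0.05 (SD, n = 2 portions), a difference of 0.82 (SE 0.07) or 1.76-fold. The other 4 Snhg1 probe sets, whose control means were 11.33, 11.18, 8.31 and 7.51, differed by 0.74, 0.88, 0.74 and 0.70. All 5 passed the limits, with 2 of them made from 1 expressed sequence tag, so they are not independent measurements of the gene.

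Snhg6, host of Snord87, was read by 1 probe set at 10.79 and 10.85 in the control pool and 11.74 and 11.72 in the null pool. Both null arrays were higher, by 0.91 on average (SE 0.06), which is 1.88-fold. Snhg16, host of 3 copies of Snord1, read 8.01 and 8.00 against 9.08 and 9.12 in its brighter probe set, a difference of 1.10 (SE 0.06) or 2.14-fold. Its second probe set read 6.43 and 6.79 in the control pool and 7.24 and 6.98 in the null pool. That probe set also separated the pools, but its portions were further apart, and its difference of 0.50 (SE 0.16) lay under the fold limit of 0.585 log2 units.

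Snhg5, host of the U50 snoRNA, differed less. Its bright probe set read 10.26 and 10.22 in the control pool and 10.63 and 10.74 in the null pool, a difference of 0.44 (SE 0.07), which is 1.36-fold and under the fold limit. Its other 2 probe sets stem from a single cDNA and stayed between 4.53 and 4.92 on every array, with the pools overlapping and differences of -0.01 (SE 0.16) and 0.00 (SE 0.10).

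Gas5, growth arrest-specific 5, is the host gene named for its accumulation in cells that stop dividing. Its probe set of highest mean read 12.12 and 12.02 in the control pool and 12.54 and 12.48 in the null pool, a difference of 0.44 (SE 0.07). A second bright probe set read 12.05 and 11.97 against 12.53 and 12.52, a difference of 0.51 (SE 0.07), or 1.43-fold. A dimmer one read 9.10 and 9.05 against 9.41 and 9.30, a difference of 0.27 (SE 0.07). The last went the other way, from 9.93 and 9.84 in the control pool to 9.62 and 9.69 in the null pool, a difference of -0.23 (SE 0.07). None of the 4 passed both limits, and 3 of 4 were higher in the null pool. The probe set of highest mean carries Affymetrix's _x_at suffix, which marks probes that can match other transcripts. The range from -0.23 to 0.51 within Gas5 was the widest of the 4 genes with several probe sets. Which exons or introns each probe set reads was not analysed here.

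**Figure D2:**
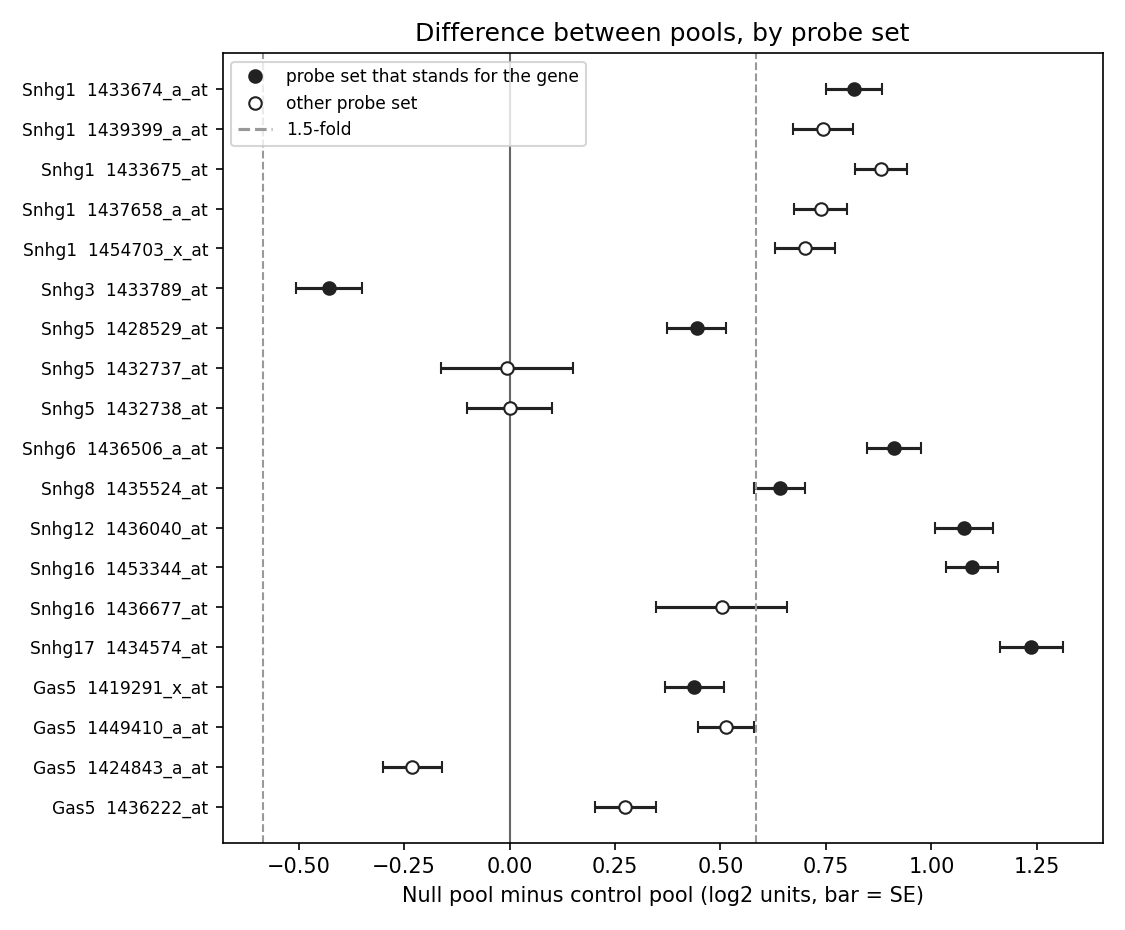
Difference of pool means in log2 units (x axis, null minus control, bars are SE from the fit) for the 19 probe sets, with filled points for each gene's probe set of highest mean and open points for its others. Dashed lines are 1.5-fold. The 5 Snhg1 points lie between 0.70 and 0.88, Snhg17 is furthest right at 1.24, and Snhg3 (-0.43) and 1 Gas5 probe set (-0.23) lie left of 0 by more than their SE.

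The hosts of H/ACA snoRNAs went both ways. Snhg17, whose human counterpart carries snoRNAs of this class, showed the widest gap between the pools, with values of 7.31 and 7.41 for control against 8.64 and 8.55 for null. Its means were 7.36 ± 0.07 and 8.59 ± 0.06 (SD, n = 2 portions), a difference of 1.24 (SE 0.07) or 2.36-fold. Snhg8, host of Snora24, read 10.07 and 10.07 against 10.70 and 10.72, and its difference of 0.64 (SE 0.06), 1.56-fold, lay just past the fold limit. Snhg12 carries Snora16a, Snora44, Snora61 and the box C/D snoRNA Snord99. It read 8.98 and 9.06 in the control pool and 10.07 and 10.13 in the null pool, a difference of 1.08 (SE 0.07) or 2.11-fold.

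Snhg3 alone of the 9 genes was lower in the null pool by the probe set that stands for it. It carries Snora73a and Snora73b, snoRNAs that act in the processing of the ribosomal RNA precursor. Its single probe set read 8.35 and 8.36 in the control pool and 8.00 and 7.85 in the null pool, with no overlap, and the means were 8.36 ± 0.01 and 7.93 ± 0.11 (SD, n = 2 portions). The difference was -0.43 (SE 0.08), 1.34-fold and within the fold limit. Snhg3 and Snhg12 are near neighbours on chromosome 4, on opposite strands and with starts 45008 bases apart in GRCm38.p6, so the gene that was lower and one that was 2.11-fold higher share a small region.

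By size of difference, the probe sets that stand for the genes ran from Snhg17 (1.24) through Snhg16 (1.10), Snhg12 (1.08), Snhg6 (0.91), Snhg1 (0.82), Snhg8 (0.64), Snhg5 (0.44) and Gas5 (0.44) to Snhg3 (-0.43), with SEs of 0.06 to 0.08. Neighbours from Snhg17 to Gas5 were 0.0530 to 2.12 times the SE of their gap apart. The last step, from Gas5 to Snhg3, was a gap of 0.87 and 8.28 times its SE. These SEs hold only the spread between portions of 1 pool per genotype. As the genes were also picked on these values, the order and its gaps are a description and carry no test. The genes closest to the shared pattern were sought by the Euclidean distance, over the 4 arrays, from the median of the host genes' centred log2 values. They were Spsb1 (distance 0.030), Ccnl2 (0.035), Myl6 (0.035), P3h2 (0.041) and Mapk8ip3 (0.041). Of the hosts themselves Snhg1 lay nearest (0.013) and Snhg3 furthest (1.24). With 4 arrays of 2 pools this likeness says only that the pools differ by a like amount.

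**Figure D3:**
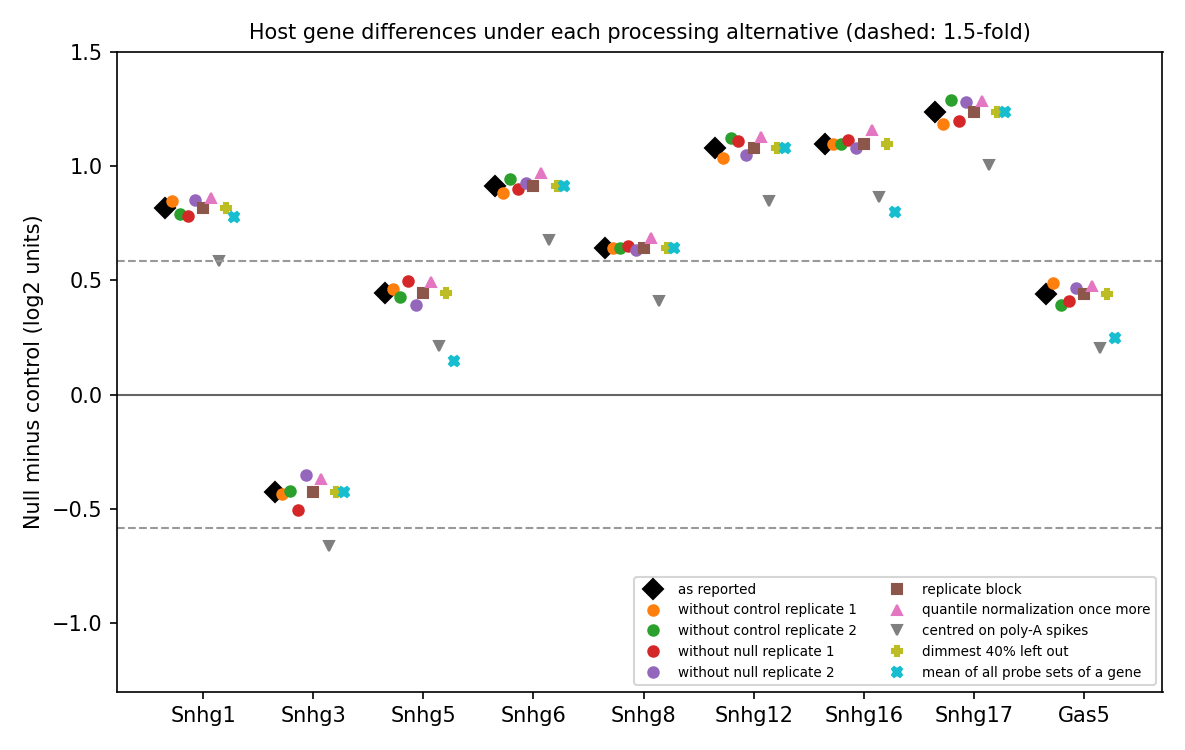
Difference of each host gene in log2 units (y axis, null minus control) as reported (black diamonds) and under each processing alternative (coloured marks). Dashed lines are 1.5-fold. Every gene keeps its sign, and the grey triangles, centred on the poly-A spikes, are the lowest point of each gene except Snhg5 and Snhg16, where the mean of all probe sets is lower.

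Other noncoding snoRNA hosts were partly higher too. Of 11 listed genes 8 were measured, and 3 rose, 0 fell and 5 did not pass both limits (limma). The list's median was 0.34 against -0.02 for all genes, of which 3.58% passed upwards and 8.06% downwards. By the adjusted p alone 4 were higher and 1 lower, beside 12.0% and 21.8% of all genes. At an unadjusted p under 0.05, 5 were higher and 1 lower, beside 16.8% and 27.5% of all genes. Over all 16 probe sets of these genes 7 rose and 0 fell, beside 6.76% and 6.96% of all probe sets. Zfas1, which hosts snoRNAs beside the gene Znfx1, read 10.36 and 10.39 in the control pool and 11.30 and 11.26 in the null pool. It rose by 0.91 (SE 0.06; limma, adjusted p = 0.0013). Snhg14, the long transcript of the imprinted Prader-Willi region, read 8.52 and 8.56 against 9.48 and 9.43 and rose by 0.92 (SE 0.06; limma, adjusted p = 0.00131). Its other 2 probe sets, at 0.55 and 0.04, did not pass both limits, and the mean of its 3 probe sets differed by 0.50, under the fold limit. Rian, an imprinted host of the Dlk1-Dio3 region, read 8.94 and 9.32 against 10.16 and 10.16. It rose by 1.03 (SE 0.13; limma, adjusted p = 0.0058), and its other 3 probe sets rose as well, but without null replicate 2 its adjusted p was 0.0513 (1.03, SE 0.19). Snhg4 read -0.32 and Snhg18 -0.03, values named after they were seen.

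Protein-coding snoRNA hosts, which include many ribosomal protein genes, mostly kept close to the median of all genes. Of 36 listed genes 23 were measured, and 3 rose, 0 fell and 20 did not pass both limits, where 3.58% of all genes rose and 8.06% fell. At an unadjusted p under 0.05 in limma, 6 were higher and 2 lower, beside 16.8% and 27.5% of all genes. Over all 55 probe sets of these genes 4 rose and 1 fell, beside 6.76% and 6.96% of all probe sets. By the probe sets of highest mean, the list's median was 0.09, and -0.14 with poly-A spike centring, which also gave 3 rises and 1 fall. Several of these genes read near the top of the range, such as Rpl4 (control mean 14.04) and Rpl7a (14.05). Whether the arrays resolve differences at such levels was not tested. Rpl12, a ribosomal protein gene read here by 1 probe set, was 8.57 and 8.64 in the control pool and 9.99 and 10.12 in the null pool. It rose by 1.45 (SE 0.08; limma, adjusted p = 0.000854). Its control mean of 8.60 lay far below those of the other measured ribosomal protein genes of the list, 13.66 (Rps3) to 14.09 (Rps2). Which part of the Rpl12 transcript this probe set reads was not analysed here. Taf1d, a subunit gene of the RNA polymerase I selectivity factor, rose by 0.89 (SE 0.07; limma, adjusted p = 0.00165), while 1 of the 6 remaining Taf1d probe sets passed the limits downwards (-0.67). The mean of its 7 probe sets differed by 0.19 (limma, adjusted p = 0.0533), which passes neither limit. Eif4a2, an RNA helicase gene of translation initiation, rose by 0.83 (SE 0.06; limma, adjusted p = 0.00161).

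Of 7 genes for core proteins of the mature snoRNA particles 0 rose and 0 fell (limma), where 3.58% of all genes rose and 8.06% fell. At an unadjusted p under 0.05, 1 was higher and 2 lower, beside 16.8% and 27.5% of all genes. The median was 0.05, and -0.18 with poly-A spike centring. Nhp2, an H/ACA core protein gene, differed by -0.28 (SE 0.06) and Nop58, a box C/D core protein gene, by 0.25 (SE 0.08). Of 11 assembly factors, beside the same shares, 0 rose and 0 fell (limma), with 3 higher and 4 lower at an unadjusted p under 0.05, and a median of -0.13. Shq1, a chaperone gene of H/ACA assembly, read 7.85 and 7.81 in the control pool and 7.42 and 7.35 in the null pool, a difference of -0.44 (SE 0.06). Znhit3, a gene of box C/D assembly, differed by -0.40 (SE 0.06). Both fell past the limits with poly-A spike centring (-0.68 and -0.63; limma, adjusted p = 0.00156 and 0.00324), which moved the median of all genes to -0.26.

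Factors of nonsense-mediated decay, the pathway known to remove several exonic host RNAs, differed in both directions. By the probe sets of highest mean, 0 of 12 measured members rose and 0 fell (limma), where 3.58% of all genes rose and 8.06% fell. By the adjusted p alone 3 were higher and 2 lower, beside 12.0% and 21.8% of all genes. At an unadjusted p under 0.05 there were 4 higher and 3 lower, beside 16.8% and 27.5% of all genes. Among all 21 probe sets of these genes 1 rose and 0 fell, beside 6.76% and 6.96% of all probe sets. The one that rose was a dimmer one of the kinase gene Smg1 (0.80; limma, adjusted p = 0.0019). The median over the probe sets of highest mean was -0.02, equal to that of all genes to 2 decimals. That median changed with the processing. It was 0.10 with the mean of a gene's probe sets and -0.25 with poly-A spike centring. Without control replicate 1 it was 0.03, and without control replicate 2 it was -0.05. Upf2, an adaptor gene of the core complex, read 9.29 and 9.32 in the control pool and 9.77 and 9.72 in the null pool, a difference of 0.45 (SE 0.06). Smg6, the endonuclease gene, differed by 0.40 (SE 0.06). Both stayed under the fold limit.

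Of 13 measured mRNAs of translation factors and other genes that share the TOP start, 0 rose and 0 fell by the probe sets of highest mean (limma), where 3.58% of all genes rose and 8.06% fell. At an unadjusted p under 0.05, 5 were higher and 0 lower, beside 16.8% and 27.5% of all genes. Other probe sets of these genes did pass: of 35 in all 3 rose and 1 fell, beside 6.76% and 6.96% of all probe sets. Those of this list that passed were 2 of Hnrnpa1, an RNA-binding protein gene (1.24 and 0.96), 1 of Eif4b (0.66) and 1 of Eef1d, an elongation factor gene (-0.69). The median was 0.14, and -0.10 with poly-A spike centring. Some of these genes also read near the top of the range, such as Eef1a1 (control mean 14.32) and Tpt1 (14.21), where the resolution of differences was not tested. Eif4b, a cofactor gene of the initiation helicase, read 11.74 and 11.67 in the control pool and 12.22 and 12.21 in the null pool in its probe set of highest mean, a difference of 0.51 (SE 0.06). Eif3h differed by 0.22 (SE 0.06). Of 9 measured regulators of TOP mRNAs, 2 rose and 0 fell (limma), and 3 were higher and 3 lower at an unadjusted p under 0.05, beside the same shares of all genes. Over all 29 probe sets of these genes 7 rose and 3 fell, beside 6.76% and 6.96% of all probe sets. By the probe sets of highest mean, poly-A spike centring gave 1 rise and 1 fall among the 9 genes. Eif4ebp1, an inhibitor gene of cap-dependent translation, read 10.15 and 10.17 against 11.58 and 11.58. It rose by 1.42 (SE 0.06; limma, adjusted p = 0.000662), and so did its other 2 probe sets. Its paralogue Eif4ebp2, named after its values were seen, differed by -0.42 (SE 0.07) in its probe set of highest mean, 3 of its other 4 probe sets fell, and the mean of its 5 probe sets fell by 0.65 (limma, adjusted p = 0.00313). Tial1, an RNA-binding protein gene, rose by 0.60 (SE 0.07; limma, adjusted p = 0.00371). It missed the fold limit without control replicate 2 (0.56) and without null replicate 2 (0.58), and both limits with poly-A spike centring (0.37). Of the 5 Tial1 probe sets 2 differed in the other direction (-0.49 and -0.39), and the mean of all 5 differed by 0.19, under the fold limit.

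**Figure D4:**
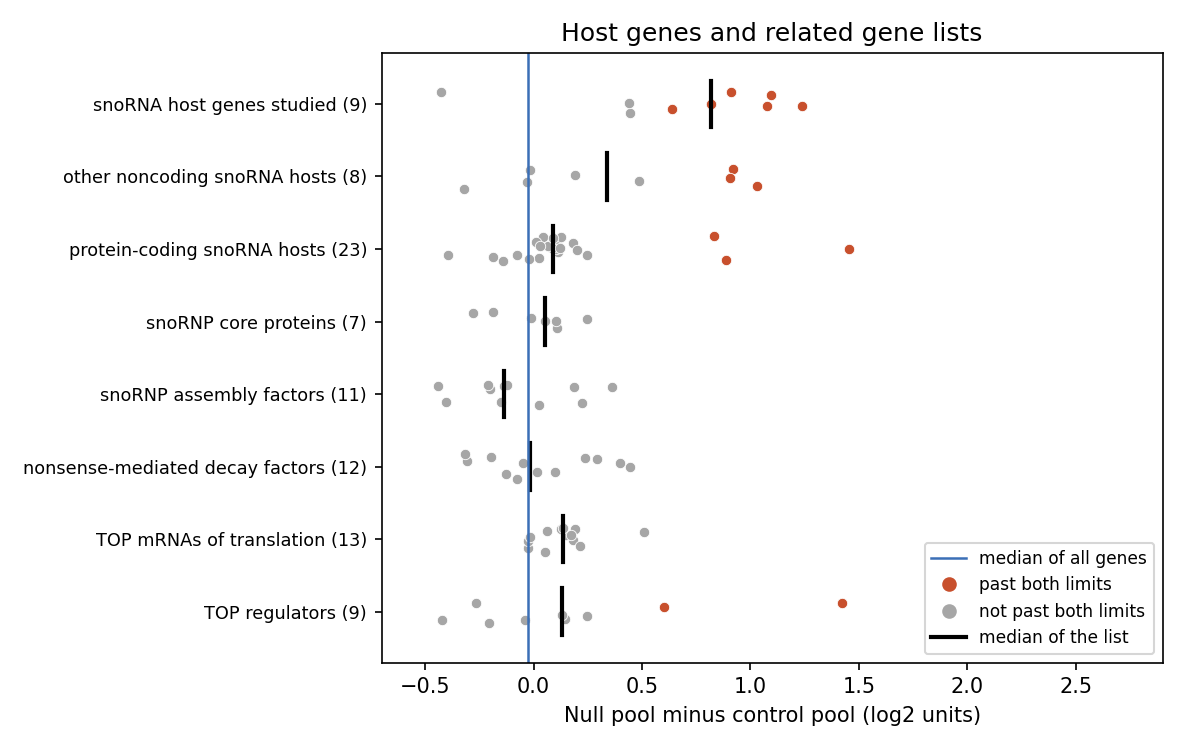
Difference in log2 units (x axis, null minus control) of each gene by the probe set of highest mean, for the 9 host genes and 7 related lists (y axis, number measured in parentheses). Red points passed both limits, black bars are list medians and the blue line is the median of all genes. The host genes have a median of 0.82, other noncoding hosts one of 0.34, and the other 6 lists have medians between -0.13 and 0.14.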

How the data were processed

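The authors deposited 1 table of log2 expression values for 4 arrays, which the submitters' processing notes credit to RMA from affy, an R package. Not given in the sources used here: its version and the probe mapping. RMA gives all arrays one distribution of probe intensities, so a change in total RNA per embryo leaves no trace. The values were used as deposited. Of 45101 probe sets, 64 Affymetrix controls were left out. The platform annotation gives 34945 of the others 1 gene, 932 several and does not list 9160. Gene numbers matched 34741 to RefSeq (GRCm38.p6), and 0 symbols changed. limma 3.58.1 in R 4.3.3 (lmFit, eBayes, genotype as the only term) was fitted on 45037 probe sets with Benjamini-Hochberg adjustment, and tested on simulated data. A call needed an adjusted p under 0.05 and a fold of at least 1.5. The number of arrays, 4, limits the precision, and with 1 pool per genotype no spread between embryos enters the adjusted p.

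The members, lists and tests were chosen with earlier results of these data known. The text names the members, Cop1, up to 4 called genes per list by size of difference or 2 where none was called, and the 5 genes nearest in pattern. Of the listed related genes, those without a probe set of their own symbol were not analysed here. Alternatives were leaving out each array, a replicate block, another quantile normalization, poly-A spike centring, a filter on dim probe sets, other limits and the mean of a gene's probe sets. The gene's probe set was fixed on all 4 arrays.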

Additional observations from a re-analysis of the deposited data

How the results depend on the processing

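The 10 host probe sets past both limits were the same 10 without any 1 array, with a second quantile normalization and without the dimmest 40% of probe sets, and leaving out an array gave 10 to 10 upward calls and 0 to 0 downward calls. An arm left with 1 array was assumed to vary like the other. The replicate numbers name portions, and same-numbered portions deviated with a correlation of 0.06, so they were not taken as pairs. With the replicate number as a block the same 10 probe sets were called and the median stayed at 0.64. The adjusted p alone gave 14 upward calls and 1 downward, beside 15.1% and 17.6% of all probe sets. A fold limit of 2 left 3 upward calls, and poly-A spike centring gave 5 upward and 1 downward. The shares of all probe sets in these last 2 settings are not given here, so nothing is read from their counts. The spike medians were 7.40 and 7.63 in the control pool and 7.67 and 7.83 in the null pool, so the centring rests on a difference (0.23) as large as that between control portions (0.24). The hosts' median of 0.64 was 0.69 with a second quantile normalization, 0.41 with spike centring and 0.70 without dim probe sets, and 0.64 to 0.68 without an array. The 2 dim Snhg5 probe sets, whose differences were near 0, changed sign under some of these settings, and the other 17 host probe sets changed sign under none of them. Among host genes, the mean of all probe sets gave 0.15 for Snhg5, 0.25 for Gas5 and 0.80 for Snhg16.

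For the related lists, a fold limit of 2 left 1 rise each among other noncoding hosts, protein-coding hosts and TOP regulators. The adjusted p alone gave 1 lower gene each among other noncoding hosts, protein-coding hosts and core proteins, 1 higher and 2 lower assembly factors, and 3 higher and 2 lower decay factors. It also gave 1 higher TOP mRNA and 2 lower TOP regulators. Spike centring gave 1 fall among protein-coding hosts, 2 among assembly factors, and 1 rise and 1 fall among TOP regulators. The shares of all genes with spike centring and at a fold limit of 2 are not given here, so nothing is read from those counts. The mean of a gene's probe sets gave 1 higher TOP mRNA, Hnrnpa1 (0.78), and 1 higher and 1 lower TOP regulator, and 2 higher protein-coding hosts in place of 3. It ended the calls of Taf1d, Tial1 and Snhg14, and added one of Snhg11 (0.68). Leaving out an array gave 1 to 2 rises of TOP regulators.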

Other observations

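Probe sets of single snoRNA host genes did not always move together. Hspa8, the gene of the constitutive heat shock protein and host of Snord14, was chosen for mention after its values were seen. Of its 4 probe sets 3 differed by -0.37, -0.39 and -0.36, while the fourth had a control mean of 7.93 and a null mean of 9.85, a difference of 1.91 (SE 0.08; limma, adjusted p = 0.000665). In Snhg11, a noncoding host expressed in neurons, the probe set of lower mean rose by 0.87 (6.08 and 6.13 against 6.97 and 6.99) and the brighter one differed by 0.49, under the fold limit.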
